A study of Mus musculus with 6 samples.

Results

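The genes described here are 10 of the 24340 in the table, chosen by name as targets of the liver X receptors, genes of lipid efflux and storage, and Ch25h. The choice was made with earlier results of these data known. All 10 were found, each in 1 row, and all 10 were expressed enough to be tested, averaging 1 FPKM or more in the 6 libraries. FPKM are fragment counts scaled by transcript length and by the mapped fragments of the library, so levels of different genes can be set beside each other per unit of length. The cells were primary microglia, the macrophages of the brain, grown from the brains of newborn C57BL/6 mice less than 3 days old. The vehicle group received DMSO for 1 h and then lipopolysaccharide (LPS) at 1 ug/ml for 5 h. The C13 group received 10 uM C13 (AG2P145D/C13), named by the submitters as a MOK inhibitor, for 1 h and then the same LPS. Each group had 3 libraries of poly-A RNA, labelled as biological replicates with no culture or litter named, and p-values here measure no more than the spread among these libraries, which may be technical. No library without LPS was analysed here, so the comparison shows the effect of C13 in LPS-exposed cells and not the response to LPS.

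Liver X receptors are nuclear receptors that bind oxysterols and, paired with a retinoid X receptor, switch on genes that move cholesterol out of the cell and genes that make unsaturated fatty acids. Abca1 and Abcg1 encode membrane pumps that load cholesterol onto lipoprotein particles, Apoe encodes a lipoprotein carrier that glia secrete, and Mylip encodes a ubiquitin ligase that limits the uptake of cholesterol. Ch25h encodes cholesterol 25-hydroxylase, an enzyme that macrophages make after LPS or interferon and whose oxysterol product binds liver X receptors and restrains the SREBP factors that drive sterol synthesis. In microglia this pathway is known for handling lipid taken up from debris and myelin.

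The promoters that bear on this set are shown here, because Abca1 and Srebf1 hold the same form of receptor repeat and Ch25h, the member with the smallest p-value, holds a different element. RefSeq promoter windows on GRCm38.p6, the patch release of the assembly UCSC names mm10, run from 250 bases before to 50 bases after a gene's start, and 12 windows matched 7 of the 10 members. There was no window for Abcg1, Scd1 or Scd2, so their promoters were not searched. The 3 windows below are written 5′ to 3′ on the gene's strand, with capitals for the motif match.
Abca1, chr4:53159846-53160145, minus strand: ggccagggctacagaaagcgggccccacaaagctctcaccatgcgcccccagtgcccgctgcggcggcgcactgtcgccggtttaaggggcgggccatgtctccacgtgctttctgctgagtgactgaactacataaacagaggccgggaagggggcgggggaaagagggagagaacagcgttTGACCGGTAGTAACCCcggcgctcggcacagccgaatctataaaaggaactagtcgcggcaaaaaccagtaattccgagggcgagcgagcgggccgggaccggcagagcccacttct
Srebf1, chr11:60210422-60210721, minus strand: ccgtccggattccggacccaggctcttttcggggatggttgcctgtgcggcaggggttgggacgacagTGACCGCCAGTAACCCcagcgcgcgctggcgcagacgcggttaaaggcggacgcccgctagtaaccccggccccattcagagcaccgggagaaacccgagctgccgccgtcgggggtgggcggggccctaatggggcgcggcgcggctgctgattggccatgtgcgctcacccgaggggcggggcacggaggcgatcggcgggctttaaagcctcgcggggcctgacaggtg
Ch25h, chr19:34475099-34475398, minus strand: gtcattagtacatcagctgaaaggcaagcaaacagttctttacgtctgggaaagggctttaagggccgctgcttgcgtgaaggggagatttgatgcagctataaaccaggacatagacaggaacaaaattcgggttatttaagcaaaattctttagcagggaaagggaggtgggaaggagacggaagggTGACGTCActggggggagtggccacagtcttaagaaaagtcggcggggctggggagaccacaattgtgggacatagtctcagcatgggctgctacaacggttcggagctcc
In Abca1 and Srebf1 the capitals mark the unit GGGTTA, 4 free bases and the unit CGGTCA, read on the opposite strand, a direct repeat of the kind that liver X receptors bind. Its letters were taken from the Abca1 window after the sequences were seen, so the match in Abca1 was certain in advance. Searched on both strands, it was found in 3 of the 32851 windows of the table (0.00913%), and 2 of those 3 belong to Abca1 and Srebf1. The other windows of Srebf1 did not hold it. The textbook form, AGGTCA repeated after 4 free bases, was found in 5 windows (0.0152%) and in none of the 12 of the members. In Ch25h the capitals mark TGACGTCA, the palindromic cyclic AMP response element, 61 to 54 bases before the start, which was found in 588 windows (1.79%) and in no other window of a member. The interferon response element core, GAAA repeated after 2 free bases, was found in 1131 windows (3.44%) and in none of the 12. These matches describe letters and not binding.

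Depth, estimated from low FPKM values taken as 1 fragment each, was 8920000 to 11470000 fragments per library. Only values in a preset window were used, which bounds the estimate, so depth and the fragment counts built on it are rough. At that depth Abcg1, the lowest member, rested on about 82 to 132 fragments per library and Nr1h3 on about 64 to 86, while Ch25h rested on about 8469 to 11144. Vehicle replicate 2 stood apart, with an FPKM sum of 634451 against 504674 to 534757 in the others. In that library genes with a longest transcript under 1500 nt lay a median of 0.45 above vehicle replicates 1 and 3 in log2(FPKM + 1), and genes with one of 8000 nt or more lay a median of 0.57 below (a change of -0.57). C13 replicate 2 stood apart in astrocyte markers, with 35.6 FPKM of Gfap against 2.74 to 8.79 FPKM in the other 5 libraries. All 12 microglia and macrophage markers were above a mean of 1 FPKM, and their summed level was 3458 to 4691 FPKM in vehicle libraries and 3354 to 3541 FPKM in C13 libraries. Markers of other cells were also present, and the 8 fibroblast and mural markers summed to 5295 to 5991 FPKM in vehicle libraries and 5029 to 5430 FPKM in C13 libraries. Of 10 astrocyte markers 9 passed the filter. The sum of all 10 was 50.8 to 63.9 FPKM in vehicle libraries and 69.1 to 121 FPKM in C13 libraries, without overlap. Outside C13 replicate 2 most of that sum was 1 gene, Gja1. Oligodendrocyte lineage markers summed to 25.1 to 31.7 FPKM in vehicle libraries and 27.1 to 29.9 FPKM in C13 libraries. Of these 10 genes 3 averaged 1 FPKM or more, and Mog and Mobp were listed at the floor of 0.01 FPKM in all 6 libraries. Endothelial markers summed to 18.6 to 21.1 FPKM in vehicle and 15.5 to 19.2 FPKM in C13 libraries, and neuron markers to 86.2 to 113 and 82.0 to 92.5 FPKM. Only 4 of the 6 endothelial and 2 of the 6 neuron markers averaged 1 FPKM or more, so the neuron sum rests on few genes. In such bulk samples fewer cells of a type and less RNA per cell cannot be told apart. Mok, which encodes the kinase named as the target of C13, was listed at 0.216 to 0.502 FPKM, below the limit for testing, which says nothing about kinase activity.

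Among the 10 members, Ch25h and the pump gene Abcg1 were lower in every C13 library and the desaturase genes Scd2 and Scd1 and the factor gene Srebf1 were higher, while the groups overlapped for Abca1, Apoe, Nr1h3, Mylip and Plin2. No member passed the test over all 11412 genes (limma, Benjamini-Hochberg adjusted p between 0.495 and 0.903), and neither did any other gene: the share called was 0% higher and 0% lower. Members with an unadjusted p under 0.05 were 2, Ch25h and Scd2, beside 837 of all genes tested (7.33%). The groups did not overlap in 5 of the 10 members, 3 higher and 2 lower with C13, where the share over all genes was 6.83% higher and 9.78% lower, or 16.6% in either direction. Without vehicle replicate 2 the count was 6 of 10, beside 35.7% of all genes, and without both replicate 2 libraries it was 7 of 10, beside 45.9%. With each library rescaled to TPM 3 members lay higher and 0 lower, where the share over all genes was 16.3% higher and 3.36% lower. The median change of the members was -0.02 in log2(FPKM + 1), beside -0.0003 over all genes tested, with 5 members above 0 and 5 below. Exact permutation of 3 libraries against 3 cannot go below a two-sided p of 0.10, and the 5 members whose groups did not overlap each had that value.

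**Figure D1:**
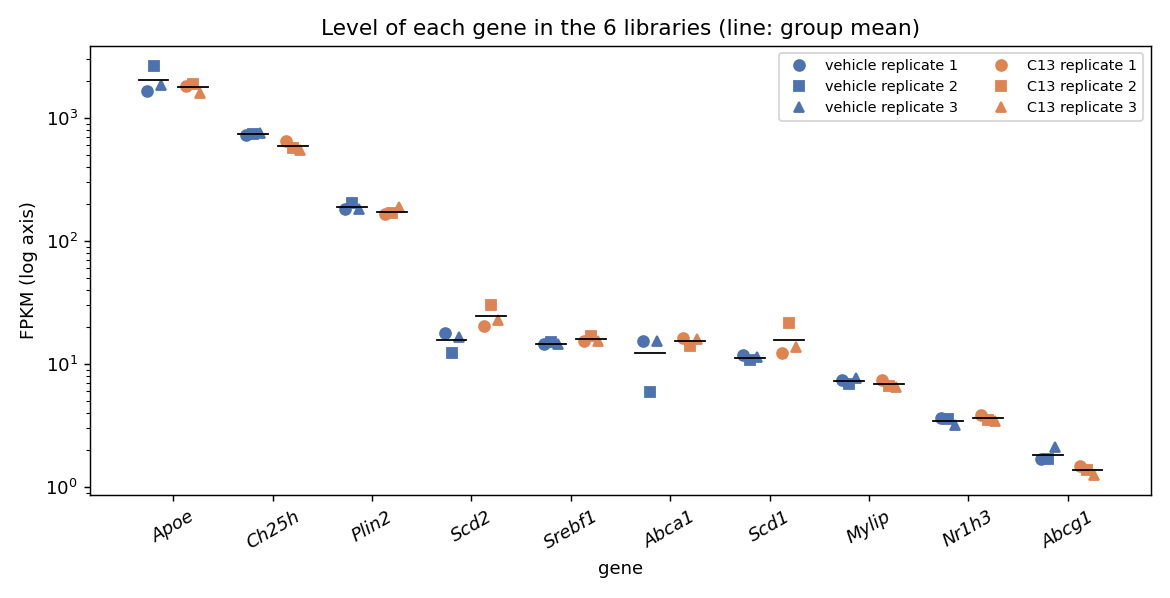
FPKM of the 10 genes (log axis) in the 3 vehicle and 3 C13 libraries, with a line at each group mean and a marker shape per replicate. Levels run from Apoe at 2037 FPKM to Abcg1 at 1.83 FPKM in the vehicle mean, and vehicle replicate 2 is the low point of Abca1 at 5.96 FPKM.

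In the vehicle mean Apoe exceeded Abcg1 by a ratio of 1114. Apoe, Ch25h and Plin2 were the 3 highest in either group, and their libraries did not overlap with those of the next gene. Scd2, Srebf1, Abca1 and Scd1 followed with vehicle means of 15.6, 14.6, 12.3 and 11.3 FPKM, and each overlapped with its neighbour in that order. Mylip, Nr1h3 and Abcg1 came last with 7.32, 3.46 and 1.83 FPKM, each apart from its neighbours. With C13, Scd2 no longer overlapped with Srebf1, and Scd1 stood above Abca1 in the mean, with overlap.

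Nr1h3 encodes LXR alpha, the receptor form found in macrophages and liver, and lies on chromosome 2 (91184061 to 91202834, minus strand, GENCODE release 21 on GRCm38). It had 3.62, 3.57 and 3.19 FPKM in vehicle replicates 1, 2 and 3 and 3.87, 3.51 and 3.45 FPKM in C13 replicates 1, 2 and 3. The groups overlapped, with means of 3.46 ± 0.237 and 3.61 ± 0.229 FPKM (SD, n = 3). The change was 0.05 in log2(FPKM + 1), with a 95% interval from -0.19 to 0.29 (limma adjusted p = 0.903). Nr1h2, which encodes the widely expressed LXR beta, was the higher of the pair with 39.0 ± 6.74 FPKM in vehicle libraries and 37.7 ± 0.15 FPKM in C13 libraries. Rxra, the gene of a partner of these receptors, had 7.11 ± 0.82 and 8.95 ± 0.397 FPKM, and its groups did not overlap, though it did not pass (adjusted p = 0.606 in limma).

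Abca1, on chromosome 4 (53030787 to 53159895, minus strand), had 15.5, 5.96 and 15.3 FPKM in vehicle replicates 1, 2 and 3. It had 16.3, 13.9 and 16.0 FPKM in C13 replicates 1, 2 and 3. The C13 libraries and vehicle replicates 1 and 3 lay together, and vehicle replicate 2 was low by itself. Its longest transcript has 10262 nt, and vehicle replicate 2 lay 1.24 below the other vehicle libraries in log2(FPKM + 1) (a change of -1.24), beyond the median of -0.57 for genes of that length. The change with C13 was 0.41 with an interval from -0.34 to 1.16 (limma adjusted p = 0.821), and without vehicle replicate 2 it was -0.002 with an interval from -0.19 to 0.19. What lowered that library's value was not tested. The 3 tested genes most like Abca1 over the 6 libraries were Nid1, Prkci and Ankrd12 (Pearson's r of 0.9996, 0.9994 and 0.9992 in log2 values). Most of the spread behind these r values is the low Abca1 level of vehicle replicate 2.

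**Figure D2:**
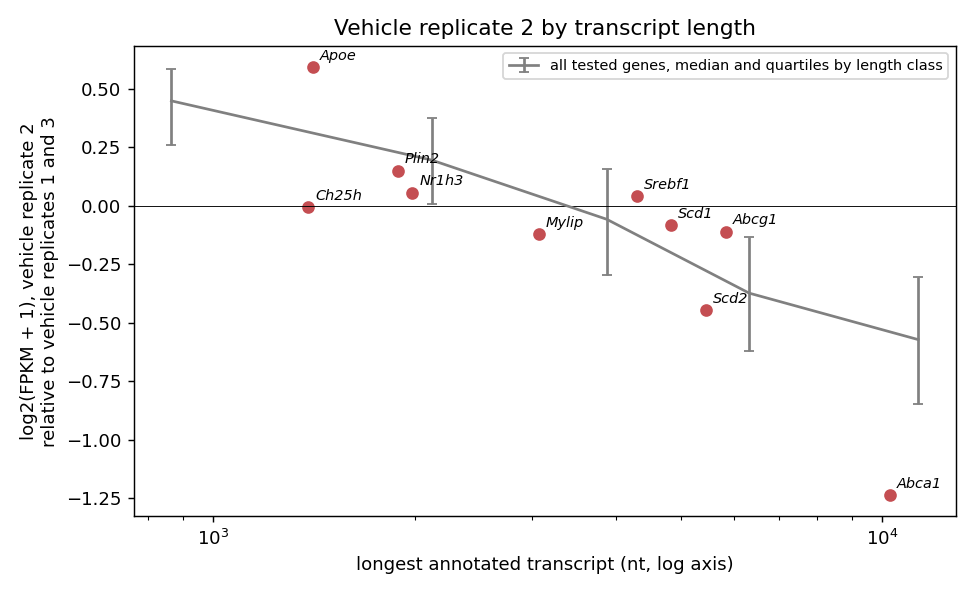
Vehicle replicate 2 relative to the mean of vehicle replicates 1 and 3, in log2(FPKM + 1), against the longest annotated transcript (log axis): the grey line gives the median and quartiles of all tested genes in 5 length classes, placed at each class's geometric middle, and the points are the 10 genes. Apoe with 1408 nt lies at 0.59 and Abca1 with 10262 nt at -1.24; the class medians of all genes run from 0.45 down to -0.57.

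Abcg1, the second pump, lies on chromosome 17 (31057675 to 31117988, plus strand). It had 1.69, 1.68 and 2.11 FPKM in vehicle libraries and 1.47, 1.37 and 1.26 FPKM in C13 libraries, in replicate order. Every C13 library was below every vehicle library. The C13 mean was 0.749 of the vehicle mean, with a change of -0.25 in log2(FPKM + 1), SE 0.115 (limma adjusted p = 0.705), on a scale that understates changes at so low a level. With a pseudocount of 0.1 the change was -0.39, with one of 5 it was -0.10, and when each library was rescaled to TPM the groups overlapped.

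Apoe, on chromosome 7 (19696109 to 19699188, minus strand), was the most abundant member. It had 1641, 2626 and 1844 FPKM in vehicle libraries and 1825, 1899 and 1598 FPKM in C13 libraries. The groups overlapped, and the high value was again that of vehicle replicate 2, 0.59 above the other vehicle libraries in log2(FPKM + 1) for a transcript of 1408 nt. The change of -0.17 had an interval from -0.62 to 0.27 (limma adjusted p = 0.831), and without vehicle replicate 2 it was 0.02 with an interval from -0.18 to 0.23. Mylip, on chromosome 13 (45389742 to 45412022, plus strand), had 7.40, 6.87 and 7.70 FPKM in vehicle libraries and 7.37, 6.62 and 6.48 FPKM in C13 libraries, and the groups overlapped. Its change was -0.09 with an interval from -0.32 to 0.14 (limma adjusted p = 0.831).

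Srebf1, which encodes the SREBP factor of fatty acid synthesis and is itself a liver X receptor target, lies on chromosome 11 (60199089 to 60222581, minus strand). It had 14.4, 14.9 and 14.6 FPKM in vehicle libraries and 15.5, 16.9 and 15.4 FPKM in C13 libraries. The C13 libraries all lay above the vehicle libraries, by a small margin. The change was 0.11 with an interval from -0.08 to 0.31 (limma adjusted p = 0.821). It was 0.07 without C13 replicate 2 and 0.25 with rescaling to TPM. The table gives Srebf1 the same locus as 3 other rows, among them Rai1, so its reads may be shared with neighbours, and there are no values for separate Srebf1 transcripts.

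Scd1 and Scd2 encode stearoyl-CoA desaturases, which put a double bond into saturated fatty acids, and neighbour each other on chromosome 19 (Scd2 at 44293674 to 44306864, plus strand, and Scd1 at 44394455 to 44407879, minus strand). Their sequences are alike, and how reads matching both were divided is not known here, so their separate values are uncertain. Scd2 had 17.7, 12.4 and 16.7 FPKM in vehicle replicates 1, 2 and 3 and 20.4, 30.3 and 22.6 FPKM in C13 replicates 1, 2 and 3. Every C13 library was above every vehicle library, with C13 replicate 2 highest and vehicle replicate 2 lowest. The means were 15.6 ± 2.85 and 24.5 ± 5.22 FPKM (SD, n = 3), a ratio of 1.57. The change was 0.61 in log2(FPKM + 1), SE 0.182, with an interval from 0.19 to 1.04 (limma adjusted p = 0.497). Scd1 had 11.7, 10.8 and 11.3 FPKM in vehicle libraries and 12.2, 21.5 and 13.6 FPKM in C13 libraries. Its groups did not overlap either, but C13 replicate 2 stood far above the rest. The ratio of means was 1.40, and the change was 0.41 with an interval from -0.04 to 0.87 (limma adjusted p = 0.728).

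Both desaturase genes had their highest and lowest values in the same libraries as the summed astrocyte markers. C13 replicate 2 had the highest value of Scd1, Scd2 and the summed astrocyte markers (121 FPKM), and vehicle replicate 2 the lowest of all 3 (50.8 FPKM for the markers). Much of the excess of the sum in C13 replicate 2 was Gfap. Vehicle replicate 2 is the library whose levels shifted with transcript length, and what this did to Scd1 and Scd2 was not tested. Of the 9 tested astrocyte markers, 5 had C13 libraries that all lay above the vehicle libraries, where the share over all genes was 6.83%. Gja1, a gap junction gene and the most abundant of the list, had 43.4, 32.3 and 43.8 FPKM in vehicle libraries. In C13 libraries it had 47.2, 52.0 and 50.5 FPKM. The fibroblast marker Dcn had 165 FPKM in C13 replicate 2 against 79.6 to 104 FPKM elsewhere. The 8 fibroblast and mural markers summed to 5430 FPKM in that library. That was the highest C13 sum, within the vehicle range of 5295 to 5991 FPKM. Without C13 replicate 2 the change of Scd1 was 0.18 and that of Scd2 0.45. Without both replicate 2 libraries the change of Scd2 was 0.31 with an interval from 0.12 to 0.49 (limma adjusted p = 0.178) and that of Scd1 0.15 with an interval from -0.05 to 0.35 (adjusted p = 0.468). Glia other than microglia express Scd2 strongly as a rule, and the part of other cells in these values was not tested.

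**Figure D3:**
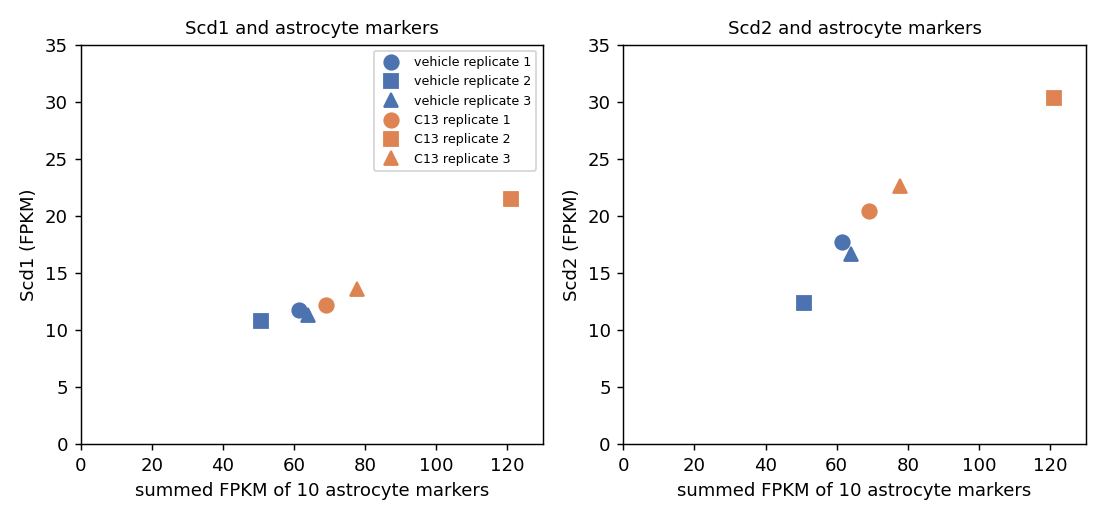
FPKM of Scd1 (left) and Scd2 (right) in each library against the summed FPKM of 10 astrocyte markers, with both groups marked by colour and the replicates by shape. C13 replicate 2 is at the upper right with 121 FPKM of markers, 21.5 FPKM of Scd1 and 30.3 FPKM of Scd2, and the other 5 libraries lie between 50.8 and 77.8 FPKM of markers.

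Plin2, which encodes a coat protein of lipid droplets, lies on chromosome 4 (86648386 to 86670060, minus strand). It had 183, 202 and 180.1 FPKM in vehicle libraries and 166, 167 and 187 FPKM in C13 libraries, and the groups overlapped through C13 replicate 3. The change was -0.12 with an interval from -0.33 to 0.09 (limma adjusted p = 0.821).

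Ch25h, on chromosome 19 (34473778 to 34475164, minus strand), had 731, 738 and 752 FPKM in vehicle replicates 1, 2 and 3. It had 647, 567 and 551 FPKM in C13 replicates 1, 2 and 3. Every C13 library was below every vehicle library, and the vehicle libraries lay close together. The means were 740.2 ± 10.5 and 588 ± 51.5 FPKM (SD, n = 3), so the C13 mean differed from the vehicle mean by -20.5%. The change was -0.33 in log2(FPKM + 1), SE 0.099, with an interval from -0.57 to -0.10 (limma adjusted p = 0.495). Without vehicle replicate 2 it was -0.34 (adjusted p = 0.0816 in limma, where 0.412% of all genes were called higher and 1.07% lower). With quantile normalization the change was -0.19 and with rescaling to TPM -0.20, and under either scaling the groups overlapped. The TPM scaling moved the median of all genes by 0.13. The 3 tested genes most like Ch25h over the 6 libraries were Txndc5, Cyr61 and Enoph1, with Pearson's r of 0.996, 0.994 and 0.994 in log2 values. They are the highest of 11402 genes over only 6 libraries, and shared regulation was not tested.

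**Figure D4:**
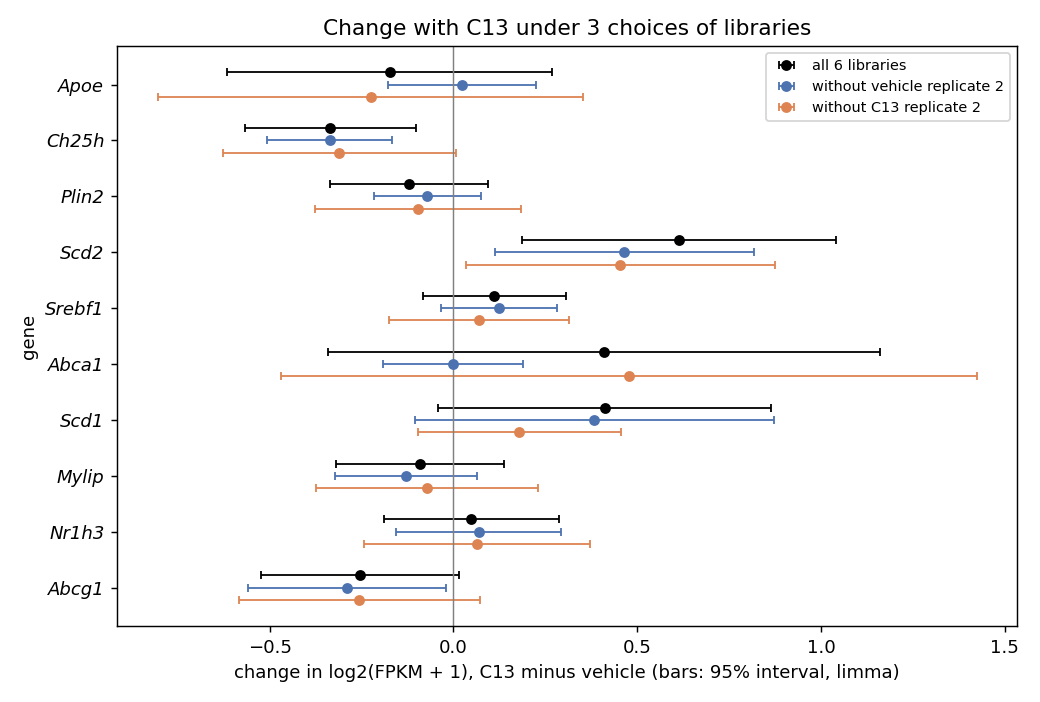
Change in log2(FPKM + 1), C13 minus vehicle, for each gene with its 95% interval from limma, with all 6 libraries, without vehicle replicate 2 and without C13 replicate 2. With all libraries the intervals of Ch25h (-0.57 to -0.10) and Scd2 (0.19 to 1.04) leave out 0, while Abca1 shifts from 0.41 to -0.002 without vehicle replicate 2.

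The genes around the set were described by 6 further lists, chosen as the pathway's other parts with earlier results of these data known. An excess of a list over all genes is therefore no independent test. No gene of any list passed over all genes tested with all 6 libraries (limma), so the counts below are of genes whose groups did not overlap, to be read against 6.83% higher and 9.78% lower over all genes. Among interferon response genes, for which Ch25h was set beside its known inducer, 11 of 12 were below 0, as were 50.1% of all genes. In that list 6 lay lower in every C13 library and 0 higher (9.78% and 6.83% of all genes), and the median change was -0.31. Mx1, an antiviral GTPase gene, had 364 ± 10.3 FPKM in vehicle libraries and 262 ± 8.04 FPKM in C13 libraries. Usp18, which removes the ISG15 tag and restrains interferon signalling, had 703 ± 48.5 and 506 ± 34.9 FPKM. Oas2, an RNA sensor gene, had 52.6 ± 1.34 and 43.9 ± 3.04 FPKM. The gene of interferon beta itself, Ifnb1, had 8.08, 21.99 and 14.5 FPKM in vehicle libraries and 6.50, 6.45 and 9.34 FPKM in C13 libraries, with overlap. Without vehicle replicate 2, 3 genes of this list passed on the lower side (Mx1, Rsad2 and Usp18). Over all genes 1.07% were then called lower and 0.412% higher. Ch25h, at an adjusted p of 0.0816 (limma), did not pass there. With all 6 libraries the groups of Rsad2 overlapped. With quantile normalization the median of the list was -0.16, and with rescaling to TPM it was -0.18, and under either scaling 4 genes lay lower and 1 higher in every C13 library. Over all genes 7.97% lay lower and 5.77% higher with quantile normalization, and 3.36% lower and 16.3% higher with TPM.

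Genes that control SREBP factors or respond to them lay mostly higher with C13. Of 17 tested members 13 were above 0 and 4 below, where 50.1% of all genes were below 0. The median change was 0.25, and 5 members lay higher in every C13 library and 1 lower (6.83% and 9.78% of all genes). Hmgcs1, an early enzyme of sterol synthesis, had 9.33, 6.19 and 8.30 FPKM in vehicle libraries and 10.0, 17.1 and 11.4 FPKM in C13 libraries. Its highest value was in C13 replicate 2 and its lowest in vehicle replicate 2, the same libraries as for Scd2. Idi1, an enzyme of isoprenoid synthesis, had 6.53 ± 0.69 and 8.86 ± 1.73 FPKM. Without both replicate 2 libraries the median of the list was 0.09 and the change of Hmgcs1 was 0.25.

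Other liver X receptor targets went both ways. Of 17 genes 14 were tested, 3 lay higher and 1 lower in every C13 library (6.83% and 9.78% of all genes), and the median change was 0.07. That median was 0.05 without vehicle replicate 2 and 0.005 without both replicate 2 libraries. Arl4c, a small GTPase gene linked to cholesterol transport, had 12.39, 12.8 and 13.94 FPKM in vehicle libraries and 11.1, 11.02 and 9.02 FPKM in C13 libraries. Elovl6, a fatty acid elongase gene, had 1.99 ± 0.244 and 2.69 ± 0.402 FPKM, and Fasn, the fatty acid synthase gene, 9.20 ± 0.567 and 10.9 ± 0.675 FPKM. Among receptors and cofactors 3 of 12 tested genes lay higher in every C13 library and 0 lower, against the same shares, with a median of 0.15. Beside Rxra these were Ppard, a fatty acid sensing receptor gene with 12.4 ± 0.203 and 14.7 ± 0.377 FPKM, and the coactivator gene Ncoa2, which vehicle replicate 2 had at 0.65 FPKM against 2.04 to 2.41 FPKM elsewhere. Without vehicle replicate 2 the median of the receptor and cofactor list was 0.05, and 5 genes lay higher and 2 lower. The groups of 35.7% of all genes did not overlap in that setting.

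Genes of sterol hydroxylation, oxysterol sensing and cholesterol esters had a median of 0.11 over 12 tested members, or 0.05 without vehicle replicate 2. Of these 1 lay higher in every C13 library, near the 6.83% of all genes, which was Osbpl2, an oxysterol binding protein gene with 8.40 ± 0.505 and 9.59 ± 0.41 FPKM. Cyp7b1, whose enzyme breaks down the product of cholesterol 25-hydroxylase, had 9.33, 11.8 and 9.37 FPKM in vehicle libraries and 11.4, 16.1 and 11.3 FPKM in C13 libraries, with overlap. Soat1, which makes cholesterol esters, had 29.1 ± 4.50 and 25.2 ± 2.04 FPKM, with overlap. Gpr183, the receptor that reads an oxysterol made from that product, was listed at 0.01 to 0.037 FPKM, in a locus shared with 3 other rows, and was not tested. In the lipid droplet and fatty acid list the groups overlapped in all 14 tested genes, with a median of -0.01, which rescaling to TPM moved to 0.13, as far as it moved all genes. The genes with the smallest p there were the fatty acid binding protein gene Fabp3 (38.2 ± 8.62 and 30.1 ± 2.99 FPKM), the fatty acid transporter gene Cd36 (37.4 ± 6.75 and 47.1 ± 8.88 FPKM) and Acsl1, which activates fatty acids (32.7 ± 6.48 and 37.4 ± 1.59 FPKM).

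**Figure D5:**
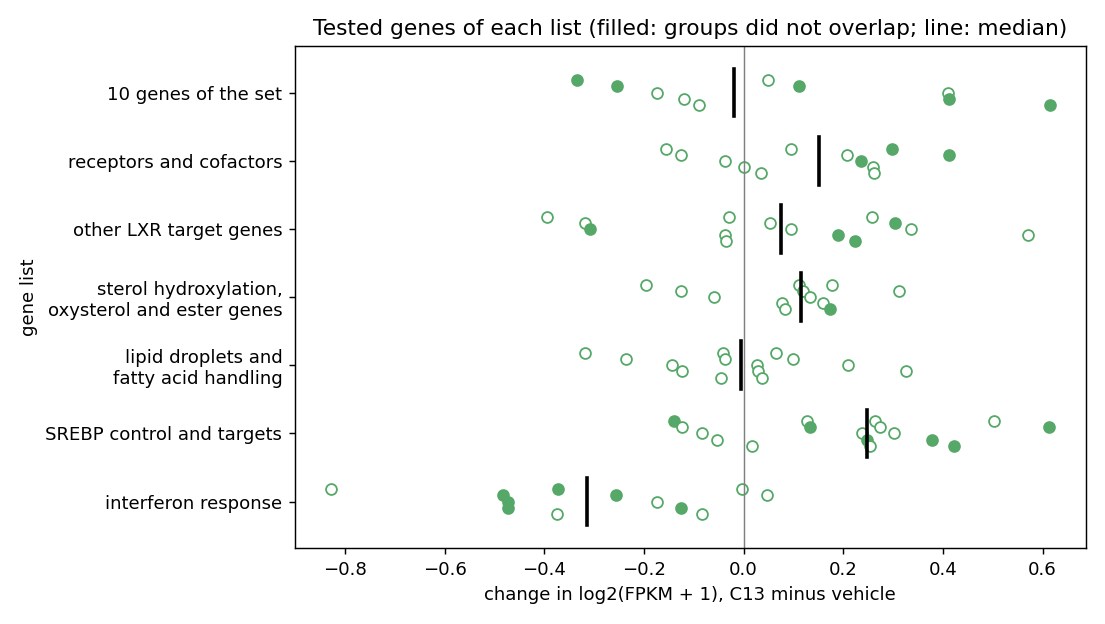
Change in log2(FPKM + 1), C13 minus vehicle, of each tested gene of the set and of 6 further lists, filled where the groups did not overlap, with a line at the list's median. Medians lie at -0.31 for the interferon genes, 0.25 for the SREBP genes and -0.02 for the set itself.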

How the data were processed

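Poly-A RNA of 6 libraries was measured, 3 per group, with groups and replicate numbers taken from the sample titles and table columns matched by the sample descriptions. The authors deposited 1 FPKM value per gene and library, made with TopHat2 2.1.0 and Cufflinks on mm10 per the submitters' processing notes. Annotation, Cufflinks version and strand handling were not given in the sources used here. FPKM divides by transcript length and library total, and it does not correct a library richer in short transcripts, where long and short genes shift in opposite directions. The table held 24340 genes after 1 emptied line, with a floor of 0.01 FPKM.

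Values were transformed to log2(FPKM + 1), which understates changes of low genes. Genes averaging 1 FPKM or more entered a limma 3.58.1 fit under R 4.3.3 (intensity trend, two-sided, no pairing), with Benjamini-Hochberg adjustment over all 11412 genes and a threshold of 0.05. The fit was tested on simulated data with added changes larger than those of the members and noise independent between genes. That test does not cover changes as small as theirs or a shift shared by many genes, as in vehicle replicate 2. Gene positions and transcript lengths came from GENCODE release 21 on GRCm38, and 96.3% of tested genes had a length. Depth was estimated in genes with 1 transcript of at least 1500 nt (89 to 110 genes per library). Only genes whose FPKM times length fell within a preset window were used. The alternatives tried were other pseudocounts, filters and scalings, no intensity trend, array weights, replicate blocks and leaving out each library.

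The members and lists were chosen with earlier results of these data known. Named genes were the 10 members, up to 4 genes past the threshold or otherwise the 3 with the smallest p of each list, the 3 genes most correlated with Ch25h and with Abca1, and Nr1h2, Gpr183, Ifnb1 and Mok. A further gene that this rule names is not reported here. Rsad2 and the cell type markers named, other than by list, were singled out after their values were seen.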

Additional observations from a re-analysis of the deposited data

How the results depend on the processing

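In 17 alternatives, 16 planned and 1 added after the data were seen, 0 members passed the threshold. The lowest adjusted p was 0.0616 (limma), for Ch25h in the block by description numbers. In that block vehicle replicate 2 and C13 replicate 1 shared their number with no other library. They therefore did not enter the change with C13, which is in effect a change without these 2 libraries. Of 168 member values 158 kept their direction, and Ch25h, Abcg1, Scd1, Scd2 and Srebf1 kept it in each alternative that tested them (Ch25h from -0.41 to -0.19, Scd2 from 0.31 to 0.76). The reversed values were Apoe 0.081, Nr1h3 -0.026 and Plin2 0.024 with quantile normalization, Mylip 0.030 and Plin2 0.015 with rescaling to TPM, Apoe 0.0026 with array weights, Abca1 -0.041 and Apoe 0.0019 in the block by description numbers, and Abca1 -0.0019 and Apoe 0.024 without vehicle replicate 2 (leaving out each library in turn gave -0.0019 to 0.62 for Abca1 and -0.31 to 0.024 for Apoe). Abca1 and Apoe reversed both in the block by description numbers and without vehicle replicate 2. That library entered the change in neither, so these alternatives are not independent. Apart from the shift of all genes with TPM, the cause of the reversed values was not tested. Abcg1 and Nr1h3 were not tested with a filter of 5 FPKM.

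Over all genes 0 passed with all 6 libraries, against 12 with no filter, 7 with quantile normalization, 2 with rescaling to TPM, 1 without the intensity trend, 42 with array weights (whose estimation stopped before convergence), 40 in the block by description numbers and 0 to 169 when a library was left out, the highest without vehicle replicate 2. It was 18 without both replicate 2 libraries. In the block by description numbers, vehicle replicate 2 and C13 replicate 1 did not enter the change. Genes of the 6 further lists passed 1 time with array weights, 3 times in the block by description numbers and 0 to 3 times when a library was left out. The members with groups that did not overlap were 5 (16.6% of all genes), against 3 with TPM (19.7%), 4 of 8 with a filter of 5 FPKM (17.1%), 5 to 6 when 1 library was left out (21.2% to 35.7%) and 7 without both replicate 2 libraries (45.9%). Their median change of -0.02 became 0.052 with quantile normalization, 0.10 with TPM and 0.019 without both replicate 2 libraries, and was -0.041 to 0.019 when libraries were left out. Exact permutation p-values of Ch25h and Scd2 were 0.10 to 0.20, where 3 libraries against 2 allow no less than 0.10.

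Samples with the same title number deviated together weakly (r of 0.089, 0.129 and 0.098), each library most with its own number, which is short of the rule for pairing, and the replicate block on these numbers called 0 genes and 0 members. The description numbers, shared by 2 pairs, gave r of -0.101 and 0.098. Depth limits Abcg1 and Nr1h3 most.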
